A study of Mus musculus with 9 samples.

Results

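The 10 core circadian clock genes Arntl, Clock, Per1, Per2, Per3, Cry1, Cry2, Nr1d1, Nr1d2 and Dbp were compared between liver tumours with constitutive Notch signalling and control liver, with attention to genes that peak in opposite phases of the day. They were chosen by name, as the probe sets whose annotation gives that gene symbol alone. Each of the 10 had 1 such probe set, among 19938 genes measured. The 4 control arrays held healthy liver of monotransgenic Rosa26-lsl-NICD mice, which carry a silent, Cre-dependent intracellular domain of Notch1 (NICD) and no Cre. The 5 tumour arrays held hepatocellular carcinoma (HCC) of AFP-NICD mice. These are bitransgenic, AFP-Cre/Rosa26-lsl-NICD, and express Cre from the promoter of alpha-fetoprotein, which releases the NICD where that promoter has been active. Both groups therefore carried the Rosa26-lsl-NICD allele, on a hybrid 129 x C57BL/6 background and at an age between 6 and 12 months. Cre, active NICD and tumour tissue came together, so their parts in a difference cannot be told apart. The sources used here give no time of day at harvest, feeding state or sex, and the part of harvest time and feeding in the values below was not tested.

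The clock of a liver cell is a loop of transcription. The activators CLOCK and BMAL1 (the product of Arntl) bind E-boxes in the genes of the period and cryptochrome proteins, of the nuclear receptors REV-ERB alpha and beta (Nr1d1 and Nr1d2) and of the output factor Dbp. Period and cryptochrome proteins then block the activators, and the REV-ERB receptors repress Arntl through ROR elements, so that Arntl is high when Nr1d1 and Dbp are low. Cry1 and Nfil3 also answer to REV-ERB and peak later than the other E-box genes. In mouse liver these rhythms are wide and follow light, feeding and hormone cycles, so a level read at an unknown hour has no fixed reference.

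The promoters carry these elements unevenly, and the stretches that hold them are shown for the members with a match. RefSeq promoter windows (build GRCm38.p6, from 250 bases before to 50 after the annotated start) were found for 9 of the 10 members, 13 windows in all. The E-box was searched as CACGTG, which reads the same on both strands. It was found in windows of Per1 and Cry1, 2 of the 13, and in 7.15% of all 32851 windows in the table. No window of Nr1d1, Nr1d2 or Dbp held it. The D-box, which Dbp and its relatives bind, was searched on both strands as TTATGTAA or TTACGTAA and occurred in Per3 and in 1.06% of all windows. The ROR element was searched on both strands as the letters AANT followed by AGGTCA or GGGTCA and occurred in Arntl and in 0.435% of all windows. Ciart, a repressor outside the 10, held 3 E-boxes and is shown because its change was the widest in the wider clock. The lines below give the 250 bases before the start, 5′ to 3′ on the gene's strand, with the E-box or D-box in capitals, and for Arntl a 30-base stretch just after the start with the ROR element in capitals.
Per1, chr11:69098699-69098948, plus strand: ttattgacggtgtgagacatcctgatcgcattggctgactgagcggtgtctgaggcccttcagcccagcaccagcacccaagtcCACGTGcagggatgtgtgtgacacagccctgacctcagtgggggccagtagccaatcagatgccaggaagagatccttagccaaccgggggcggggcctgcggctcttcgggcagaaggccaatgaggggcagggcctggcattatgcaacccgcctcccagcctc
Cry1, chr10:85185055-85185304, minus strand: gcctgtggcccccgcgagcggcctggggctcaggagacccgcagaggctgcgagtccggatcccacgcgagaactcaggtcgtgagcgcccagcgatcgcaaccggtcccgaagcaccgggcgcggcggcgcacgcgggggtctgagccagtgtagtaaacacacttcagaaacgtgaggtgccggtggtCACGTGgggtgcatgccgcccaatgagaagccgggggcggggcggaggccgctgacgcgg
Per3, chr4:151044666-151044915, minus strand: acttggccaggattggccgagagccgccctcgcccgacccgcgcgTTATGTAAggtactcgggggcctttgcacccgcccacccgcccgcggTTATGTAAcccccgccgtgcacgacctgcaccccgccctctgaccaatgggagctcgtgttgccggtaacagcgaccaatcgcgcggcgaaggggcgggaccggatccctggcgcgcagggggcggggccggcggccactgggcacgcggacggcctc
Ciart, chr3:95882229-95882478, minus strand: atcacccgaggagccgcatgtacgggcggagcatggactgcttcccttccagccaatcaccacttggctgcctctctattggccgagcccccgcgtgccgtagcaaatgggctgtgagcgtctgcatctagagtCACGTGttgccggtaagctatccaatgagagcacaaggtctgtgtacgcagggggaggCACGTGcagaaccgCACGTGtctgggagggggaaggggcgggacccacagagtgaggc
Arntl, chr7:113207528-113207557, plus strand: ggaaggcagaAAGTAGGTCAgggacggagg
Counted from the start, the E-box of Per1 lay at -166 to -161 and that of Cry1 at -60 to -55. The D-boxes of Per3, both TTATGTAA, lay at -205 to -198 and -158 to -151, and the E-boxes of Ciart began at -116, -58 and -44. The ROR element of Arntl lay at 28 to 37. These matches describe letters in a window and not bound sites, and this array measured no binding.

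The arrays differed in more than the clock, as log2 intensities and sums of linear intensity show. Hepatocyte markers were abundant on all 9, with Alb at 13.02 to 13.66, and the summed linear intensity of 5 measured hepatocyte markers was 45092 to 46868 in control liver and 34021 to 46163 in HCC. Of 3 dividing-cell markers all lay above control on every HCC array (sums 208 to 274 and 510 to 2414), and 4 cholangiocyte markers summed to 407 to 457 and 849 to 1715. Of these, Sox9 and Epcam lay above control on every HCC array, while Krt7 and Krt19 overlapped. Krt19 was 6.01 and 6.04 on HCC arrays 3 and 4, within the control range of 5.79 to 6.21. The 5 Kupffer cell markers summed to 2491 to 5678 and 1082 to 7794, the 5 endothelial markers to 2002 to 2262 and 767 to 2190, and the 5 stellate markers to 3576 to 4456 and 1612 to 4306. A linear sum follows its brightest members. In these lists Cd68, Pecam1, Lyve1, Col1a1 and Col3a1 had positive changes and the other members negative ones. The 4 T cell markers summed to 378 to 436 and 328 to 436 and the 3 B cell markers to 133 to 142 and 112 to 173, with 2 and 3 of them below the median gene on every array, and Alas2 of red cells was 10.37 on HCC array 5 against 7.18 to 8.12 elsewhere. In bulk tissue fewer cells of a type and less RNA per cell cannot be told apart, and the part of cell makeup in the clock values was not tested. Xist, which marks an inactive X chromosome, was 4.83 on control array 4 and 4.92 to 5.10 on HCC arrays 3, 4 and 5, against 10.68 to 11.76 on the other 5 arrays.

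None of the 10 clock genes passed the test between HCC and control liver. Values are log2 intensities after RMA, the usual background correction, normalisation and summary of such arrays, and changes are HCC minus control from limma, with Benjamini-Hochberg adjustment over all 19938 genes and a threshold of 0.05. Over all genes 1.02% passed, 0.858% higher and 0.16% lower in HCC. No member lay above control on every HCC array, as 5.63% of all genes did, and 1 lay below, as 3.86% did. Arntl, Cry2 and Per3, 3 of the 10, had an unadjusted p below 0.05, against 20.4% of all genes. The median change of the 10 was -0.12, beside -0.03 over all genes, with 4 positive and 6 negative. Adjusted p-values ran from 0.104 for Cry2 to 0.671 for Dbp. None passed under any of the 18 alternatives run on each gene, where the lowest adjusted p in limma was 0.0764, and none changed sign. Some of these alternatives leave the change itself as it is by construction.

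**Figure D1:**
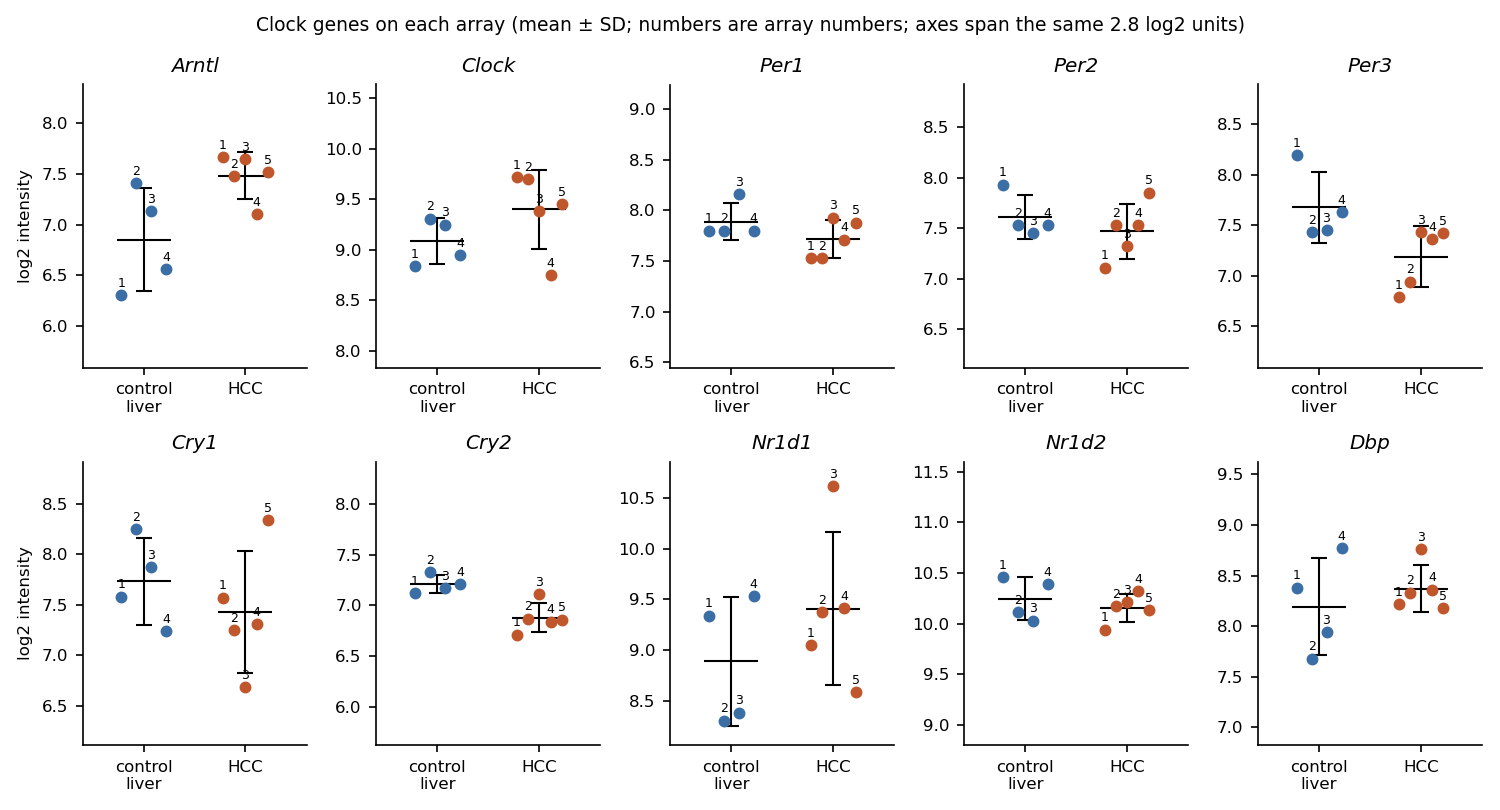
Log2 intensity (vertical axis) of the 10 clock genes on each of the 4 control liver arrays (blue) and 5 HCC arrays (orange), with array numbers above the points and group mean ± SD in black; each panel spans the same width on the log2 scale. Control arrays 1 and 4 lie apart from control arrays 2 and 3 in Arntl, Nr1d1 and Dbp, and only Cry2 has all HCC arrays below all control arrays.

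Of the activators, Arntl (probe set 10556463) measured 6.30, 7.41, 7.13 and 6.56 on control arrays 1 to 4. On HCC arrays 1 to 5 it measured 7.67, 7.48, 7.65, 7.10 and 7.52. Control arrays 1 and 4 were the lowest of the 9, while control arrays 2 and 3 lay within the HCC range, so the groups overlapped. The means were 6.85 ± 0.51 (SD, n = 4) and 7.49 ± 0.23 (SD, n = 5), a change of 0.64 (SE 0.23, 95% interval 0.13 to 1.14, unadjusted p = 0.0191, limma adjusted p = 0.169). Without control array 1 the change was 0.46, and without control array 4 it was 0.54. These are the control arrays with the lowest Arntl.

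Clock (probe set 10530733), the partner of BMAL1, measured 8.84, 9.31, 9.25 and 8.95 in control liver and 9.72, 9.70, 9.38, 8.75 and 9.45 in HCC. The order of the control arrays was the same as for Arntl, and HCC array 4 was the lowest of all 9. The change was 0.31 (SE 0.20, 95% interval -0.14 to 0.76, limma adjusted p = 0.403), and 0.47 without HCC array 4.

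The REV-ERB receptors stood against the activators in control liver. Nr1d1 (probe set 10390691) measured 9.34, 8.30, 8.38 and 9.53 on control arrays 1 to 4 and 9.05, 9.37, 10.62, 9.41 and 8.58 on HCC arrays 1 to 5. HCC array 3 was the highest, control arrays 2 and 3 were the lowest, and the groups overlapped. The means were 8.89 ± 0.64 (SD, n = 4) and 9.41 ± 0.75 (SD, n = 5), a change of 0.52 (SE 0.42, 95% interval -0.42 to 1.46, limma adjusted p = 0.503). It was 0.22 without HCC array 3, 0.32 without control array 2 and 0.92 with array weights. Nr1d2 (probe set 10417734), the second REV-ERB gene, measured 10.46, 10.11, 10.03 and 10.39 in control liver and 9.94, 10.17, 10.21, 10.32 and 10.13 in HCC. Control arrays 1 and 4 were again above control arrays 2 and 3, over a narrower range of 0.44 against 1.23 log2 units. The change of Nr1d2 was -0.09 (SE 0.11, limma adjusted p = 0.669), and -0.17 to -0.02 when single arrays were left out.

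Dbp (probe set 10553092), the output factor that binds D-boxes, measured 8.38, 7.68, 7.94 and 8.77 on control arrays 1 to 4 and 8.22, 8.33, 8.76, 8.36 and 8.18 on HCC arrays 1 to 5. Control arrays 1 and 4 were again on the high side and control arrays 2 and 3 the lowest of the 9. The HCC arrays spanned 0.58 log2 units, inside the 1.10 spanned by the control livers. The change was 0.18 (SE 0.22, 95% interval -0.31 to 0.67, limma adjusted p = 0.671). It was 0.01 without control array 2, 0.09 without control array 3, 0.08 without HCC array 3 and 0.37 without control array 4.

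The period genes, whose products inhibit the activators, were lower in HCC by their means without passing the test. Per3 (probe set 10518781) measured 8.19, 7.43, 7.45 and 7.63 in control liver and 6.79, 6.94, 7.43, 7.36 and 7.42 in HCC. HCC arrays 3 to 5 lay at the level of control arrays 2 and 3, and HCC arrays 1 and 2 lay below every control. The change was -0.49 (SE 0.20, 95% interval -0.93 to -0.04, unadjusted p = 0.0353, limma adjusted p = 0.214), and -0.31 without control array 1, the array with the highest Per3.

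Per1 (probe set 10377439), which also answers quickly to glucocorticoids and feeding, was at 7.80 on control arrays 1, 2 and 4 and at 8.16 on control array 3. In HCC it measured 7.53, 7.53, 7.93, 7.71 and 7.88. Per2 (probe set 10356601) measured 7.93, 7.53, 7.45 and 7.53 in control liver and 7.11, 7.53, 7.32, 7.53 and 7.85 in HCC. The 7.80 of Per1 on 3 control arrays and the 7.53 of Per2 on control arrays 2 and 4 and HCC arrays 2 and 4 are identical in the deposited table, which holds such shared values in 38.7% of all probe sets. The changes were -0.17 for Per1 (limma adjusted p = 0.439) and -0.14 for Per2 (limma adjusted p = 0.631). Per1 was at -0.08 without control array 3, and Per2 at -0.04 without control array 1, -0.05 without HCC array 1 and -0.24 without HCC array 5.

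Of the cryptochromes, the other inhibitors of the activators, Cry2 (probe set 10485170) was the only member whose groups did not overlap. It measured 7.12, 7.33, 7.17 and 7.21 in control liver and 6.71, 6.87, 7.11, 6.84 and 6.86 in HCC. All HCC arrays lay below all control arrays, with HCC array 3 only just below the lowest control. Over all genes 9.48% did not overlap in either direction, so 1 of 10 is near the background. The means were 7.21 ± 0.09 (SD, n = 4) and 6.88 ± 0.15 (SD, n = 5), a change of -0.33 (1.26-fold lower, SE 0.09, 95% interval -0.53 to -0.13, unadjusted p = 0.00476, limma adjusted p = 0.104). Cry2 is the least rhythmic cryptochrome in liver.

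Cry1 (probe set 10371400) measured 7.58, 8.25, 7.87 and 7.24 on control arrays 1 to 4 and 7.57, 7.25, 6.69, 7.31 and 8.34 on HCC arrays 1 to 5. The highest values were on control array 2 and HCC array 5 and the lowest was on HCC array 3, so both groups were wide and overlapped. The change was -0.31 (SE 0.32, 95% interval -1.02 to 0.41, limma adjusted p = 0.610). It was -0.12 without HCC array 3, -0.13 without control array 2, -0.47 without control array 4 and -0.53 without HCC array 5.

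When Xist was added to the model the change was 0.70 for Arntl (limma adjusted p = 0.160), 0.36 for Nr1d1 (limma adjusted p = 0.669), 0.06 for Dbp (limma adjusted p = 0.900) and -0.36 for Cry2 (limma adjusted p = 0.0939). Control arrays 1 and 4, which shared low Arntl and high Nr1d1, differed in Xist. The part of sex in the clock values was not tested.

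Of the 10 clock genes, 5 were among the most variable transcripts of the control livers. The SD among the 4 control livers was 0.64 for Nr1d1, larger than that of 98.9% of all genes. It was 0.51 for Arntl (97.9%), 0.48 for Dbp (97.6%), 0.43 for Cry1 (96.6%) and 0.36 for Per3 (94.2%). Cry2, with an SD of 0.09, was larger than 26.1% of genes only, and the other 9 members all lay above the median SD of 0.14. These ranks are over genes of all intensity levels.

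In HCC the spread was placed differently among the members. Nr1d1 and Cry1 were wide, with SDs of 0.75 and 0.60 that exceeded 95.4% and 92.4% of genes. Arntl and Dbp had an SD of 0.23 each, larger than 59.2% and 59.8% of genes. Over all genes the SD was larger in HCC than in control liver for 67.9%, and among the members for 6 of 10. Whether the spread of a member differs between the groups was not tested.

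Genes of opposite phase were set against each other on each array. Each gene was centred on its control mean, and Arntl with Clock formed the activator arm, while Dbp, Nr1d1, Per3 and Tef, a relative of Dbp, formed the opposite arm. Npas2, a paralog of Clock meant for the first arm, was not analysed here. The activator arm was at -0.40, 0.39, 0.22 and -0.21 on control arrays 1 to 4, and the opposite arm at 0.29, -0.38, -0.29 and 0.37. The arms thus had opposite signs on all 4 control livers, with the activators low on arrays 1 and 4 and high on arrays 2 and 3. Since centring uses the control mean, some values of each sign are bound to occur in this group.

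**Figure D2:**
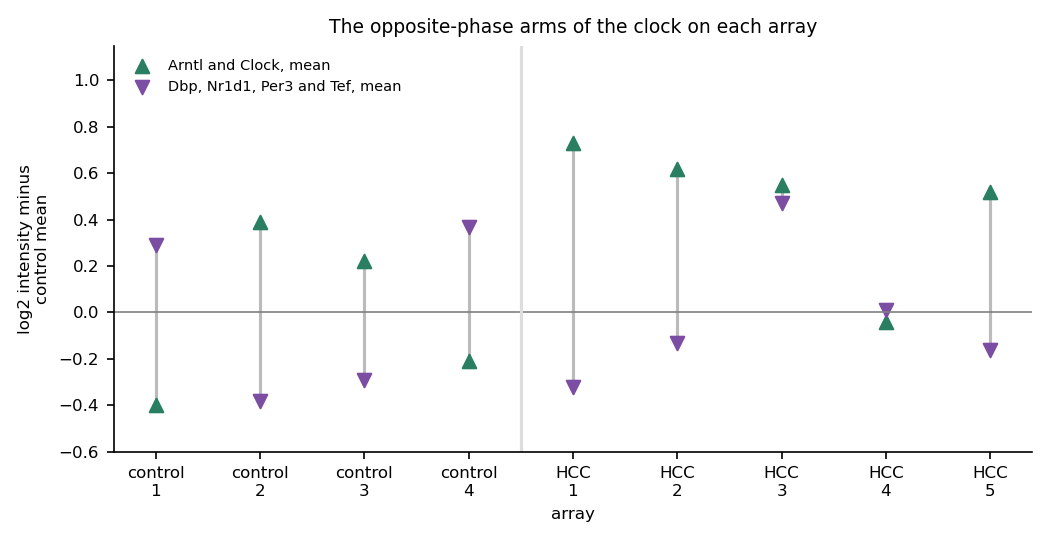
Mean log2 intensity minus the control mean (vertical axis) of Arntl and Clock (green) and of Dbp, Nr1d1, Per3 and Tef (purple) on each array (horizontal axis), with a grey line joining the arms of an array. The arms swap places between control arrays 1 and 4 and control arrays 2 and 3, while on HCC array 3 both lie well above the control mean and on HCC array 4 both lie near it.

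In HCC the activator arm was at 0.73, 0.62, 0.55, -0.04 and 0.52 on arrays 1 to 5, and the opposite arm at -0.32, -0.13, 0.47, 0.01 and -0.16. On HCC arrays 1, 2 and 5 the arms stood apart in the same direction as on control arrays 2 and 3, but on HCC arrays 1 and 2 not through the same genes. On HCC arrays 1 and 2 Nr1d1 (9.05 and 9.37) and Dbp (8.22 and 8.33) lay above their control means of 8.89 and 8.19. The low opposite arm there came from Per3 (6.79 and 6.94, control mean 7.67) and Tef (7.77 and 7.93, control mean 8.35). On HCC array 5 Nr1d1 (8.58), Per3 (7.42), Tef (8.27) and, only just, Dbp (8.18) lay below their control means, as on control arrays 2 and 3. On HCC array 3 both arms were above the control mean, and on HCC array 4 both were near it. The gap, activator arm minus opposite arm, was -0.69, 0.77, 0.51 and -0.58 on the control arrays and 1.05, 0.76, 0.08, -0.05 and 0.68 on the HCC arrays. No HCC array had a gap as negative as those of control arrays 1 and 4, and the groups overlapped. The mean gap was 0.50 ± 0.47 (SD, n = 5) in HCC and, by construction, 0 in control liver (SD 0.74, n = 4). No p is given for this score, since its genes were chosen with earlier results of these data known.

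The pair of Arntl and Nr1d1 showed where the arrays departed from each other. On control arrays 1 and 4, Nr1d1 values of 9.34 and 9.53 went with Arntl values of 6.30 and 6.56. On HCC arrays 2 and 4, similar Nr1d1 values of 9.37 and 9.41 went with Arntl values of 7.48 and 7.10. On HCC array 3 the highest Nr1d1, 10.62, stood beside an Arntl of 7.65, which only HCC array 1 exceeded. Arntl minus Nr1d1 was -3.04, -0.90, -1.25 and -2.97 on the control arrays and -1.38, -1.89, -2.97, -2.31 and -1.06 on the HCC arrays, and so overlapped. Arntl minus Dbp ran from -2.22 to -0.27 in control liver and from -1.25 to -0.55 in HCC, within the control range on every HCC array. These are differences of log2 intensity within an array and compare arrays, not the abundance of both genes.

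**Figure D3:**
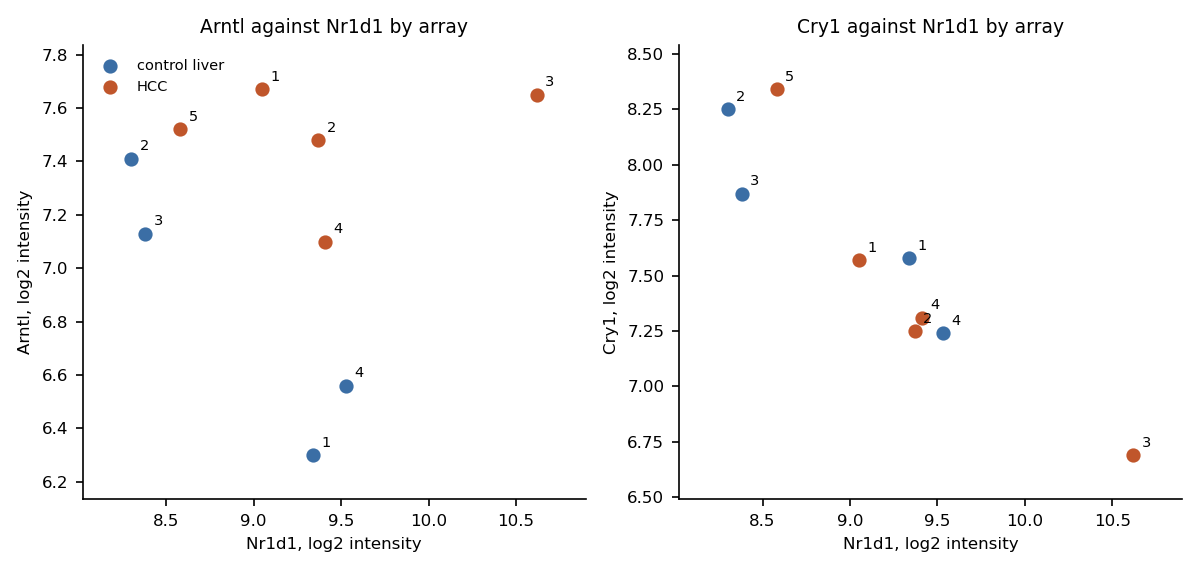
Log2 intensity of Arntl (left, vertical axis) and of Cry1 (right, vertical axis) against that of Nr1d1 (horizontal axes) on 4 control liver arrays (blue) and 5 HCC arrays (orange), with array numbers. Cry1 is lower where Nr1d1 is higher in both groups, while the HCC arrays with Nr1d1 above 9.0 keep higher Arntl values than control arrays 1 and 4.

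Cry1 and Nr1d1 ran against each other over the 9 arrays. To set the group difference aside, values were taken as deviations from the group mean over the 9 arrays, and correlations are given as descriptions with no p, since the pairs were picked after seeing 45 pairs of members. Pearson's r was -0.93 and Spearman's rho -0.95 for Nr1d1 with Cry1, and r was -0.90 without HCC arrays 3 and 5, the arrays farthest from the median of Nr1d1. For Nr1d1 with Arntl r was -0.43 (rho -0.55), and -0.88 without the same HCC arrays. Arntl and Nr1d2 gave r of -0.87 (rho -0.90). Dbp and Nr1d1, both E-box outputs, gave 0.88 (rho 0.93), and Dbp with Arntl gave -0.62 (rho -0.72), which was -0.32 without control arrays 2 and 4 and so rests on them. All values of an array share its RNA sample and normalisation.

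By the same measure, the genes with the pattern most like Dbp among those above the median intensity were Bckdk (r = 0.96), a kinase of branched-chain amino acid breakdown, Agbl5 (0.93), Zbtb24 (0.93), Foxj2 (0.91) and Tango6 (0.90). The most opposite were Tomm22 (-0.91), Nnmt (-0.91), Timp2 (-0.90), the clock-linked repressor Nfil3 (-0.90) and Ctps (-0.88). Nfil3, whose protein competes with Dbp for D-boxes, ranked near the very bottom of all genes, at percentile 0.0201. Its r with Dbp was -0.74 without control arrays 2 and 4. Among the members, r with Dbp was higher for Nr1d1 than for 99.8% of all genes and for Nr1d2 than for 97.1%, while only 0.176% of genes lay below Cry1 (r = -0.81) and 1.63% below Arntl. Per1 (-0.00) and Per2 (0.02) lay near the middle. These ranks describe 9 arrays and carry no test.

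Nfil3 measured 8.95, 9.63, 9.50 and 8.26 in control liver and 8.74, 9.22, 8.62, 8.88 and 9.39 in HCC, high on control arrays 2 and 3 where Dbp was low. Bhlhe41, an E-box repressor, ran the other way, with 6.92, 5.62, 5.77 and 7.73 in control liver and 6.74 to 7.51 in HCC. The split of the control livers into arrays 1 and 4 against 2 and 3 was seen in 7 of the 10 members. These were Arntl, Clock, Per3, Cry1, Nr1d1, Nr1d2 and Dbp, while Per1, Per2 and Cry2 did not show it. For Cry1 the values on arrays 1 and 4 were the lower, and for Per3 the higher. Nfil3 and Bhlhe41 showed it, as did other genes of the wider clock, such as Tef and Rora. The split was picked with these values in view. Its share over all genes was not counted, so the 7 of 10 has no background to be read against.

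The same control arrays differed in all 5 Kupffer cell markers, which were lower on arrays 1 and 4 than on arrays 2 and 3. Clec4f, a lectin of Kupffer cells, measured 8.91, 10.10, 10.02 and 9.57 on control arrays 1 to 4. Vsig4, a complement receptor, measured 10.25, 11.42, 11.20 and 10.83, Adgre1 7.66, 9.02, 8.66 and 8.12, Cd5l 8.35, 9.56, 8.86 and 8.42, and Cd68 8.04, 9.14, 8.97 and 8.77. The share of all genes that split these arrays in this way was not counted, so these 5 have no background either. The part of these cells in the split of the clock genes was not tested.

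The wider clock was read from 3 lists of 19 genes, of which 16 were measured on a probe set of their own. None passed in limma, against 1.02% of all genes, 6 had an unadjusted p below 0.05 (20.4% of all genes), and the median change was -0.03, the same as over all genes. On every HCC array 1 gene lay above all controls and 1 below, as 5.63% and 3.86% of all genes did. Those were Csnk1e, a casein kinase that marks period proteins for breakdown (7.10 ± 0.06 and 7.38 ± 0.17, change 0.29, limma adjusted p = 0.145), and Usp2, a deubiquitinase with a strong rhythm in liver (9.02 ± 0.13 and 8.03 ± 0.66, change -0.99, limma adjusted p = 0.130). Usp2 passed only without HCC array 5 (adjusted p = 0.0383 in limma). Fbxl21, an F-box protein that acts on cryptochromes, was at 6.44 ± 0.11 and 6.69 ± 0.62, with HCC arrays 1 and 3 at 7.37 and 7.34 and the rest near control (change 0.25, limma adjusted p = 0.643). Its mean over the arrays was dim, below that of the median gene.

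Ciart, a repressor of CLOCK and BMAL1 whose promoter is shown above, had the largest change of the wider clock. On the brighter of its 2 probe sets (10373452) it measured 9.70, 7.83, 9.43 and 9.09 in control liver and 7.15, 8.13, 6.64, 6.46 and 7.53 in HCC. Control array 2 was the lowest control and HCC array 2 the highest tumour, and these arrays made the groups overlap. The change was -1.83 (3.55-fold lower, SE 0.44, 95% interval -2.82 to -0.84, limma adjusted p = 0.0818). The second probe set of Ciart (10500272) gave -1.46 (SE 0.33, limma adjusted p = 0.0699 over all probe sets). The genome positions of the 2 probe sets were not checked. Over the arrays r of the brighter probe set of Ciart with Dbp was 0.20.

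Of the D-box factors related to Dbp, Hlf measured 9.57 ± 0.23 in control liver and 9.02 ± 0.50 in HCC (change -0.56, limma adjusted p = 0.238) and Tef 8.35 ± 0.22 and 8.03 ± 0.20 (change -0.33, limma adjusted p = 0.212). The repressor Bhlhe40 measured 8.91 ± 0.33 and 8.48 ± 0.26 (change -0.44, limma adjusted p = 0.221). The ROR receptor gene Rora, which activates Arntl, measured 8.94 ± 0.10 and 8.63 ± 0.31 (change -0.31, limma adjusted p = 0.289). Arntl2 and Rorb had changes of less than 0.01 in size and dim values, at means of 5.73 and 5.51 in control liver.

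**Figure D4:**
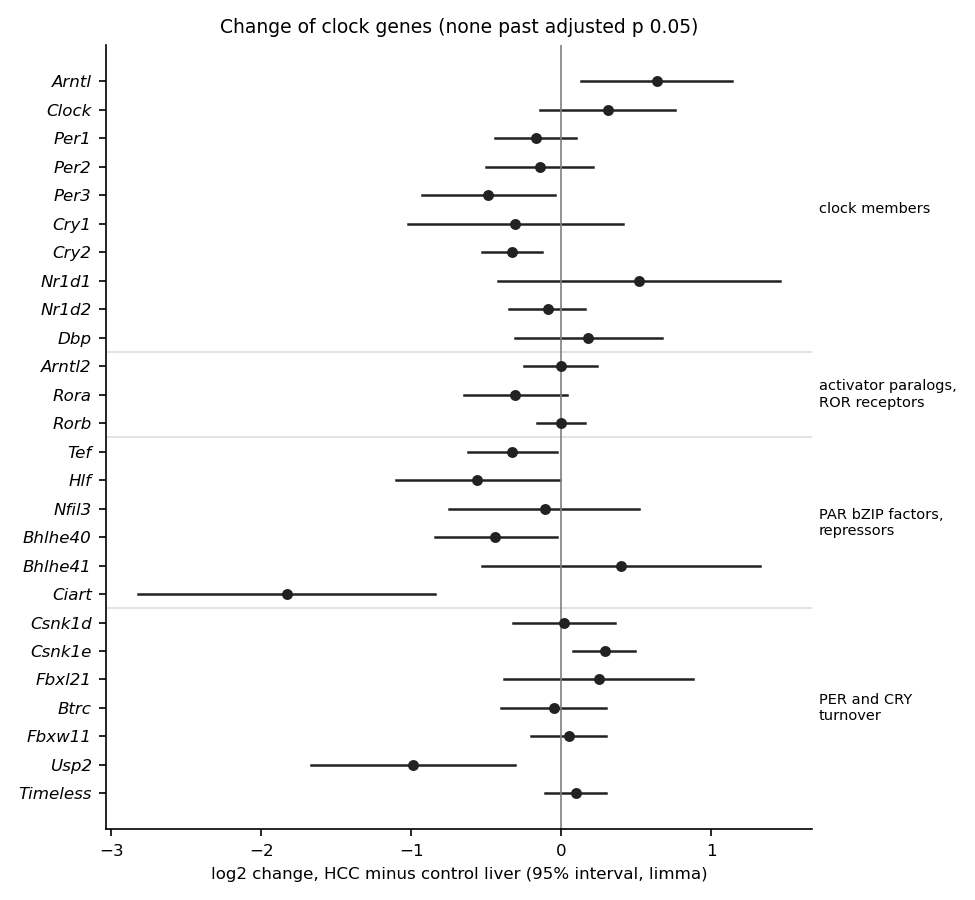
Log2 change, HCC minus control liver (horizontal axis), with 95% intervals from limma for the 10 clock members and the 16 measured genes of the wider clock, grouped by role. No gene passes the adjusted threshold, and Ciart and Usp2 lie farthest to the left.

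Genes that the liver clock drives had negative changes for the most part. Of 15 measured output genes, 13 had a negative change, against 57.5% of all genes, and the median was -0.95. That share is over genes of all intensity levels. The 5 measured hepatocyte markers also all had negative changes, with a median of -0.21. Whether the outputs differ in this from other hepatocyte genes was not tested. Among the outputs Lpin1, a phosphatidate phosphatase and coactivator, fell and was the only one past the threshold, where 0.16% of all genes were lower. It measured 10.16, 10.41, 10.36 and 9.78 in control liver and 7.29, 8.31, 7.80, 7.15 and 8.97 in HCC, with no overlap (change -2.28, 4.85-fold, SE 0.35, limma adjusted p = 0.0344). The call was lost without any 1 of the control arrays or without HCC array 2, 3 or 4, with adjusted p-values in limma from 0.0511 to 0.126 at changes between -2.09 and -2.41. A further 4 outputs lay entirely below control, where 3.86% of all genes did.

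Those 4 were Noct, the phosphatase nocturnin (8.19 ± 0.05 and 7.48 ± 0.31, limma adjusted p = 0.0584), Alas1, the first enzyme of haem synthesis (11.62 ± 0.14 and 9.68 ± 0.99, limma adjusted p = 0.0717), Nr1i3, the xenobiotic receptor CAR (11.04 ± 0.48 and 8.15 ± 1.95, limma adjusted p = 0.130), and Ppara, the fatty acid receptor (10.30 ± 0.28 and 9.13 ± 0.76, limma adjusted p = 0.130). Noct, Alas1, Nr1i3 and Ppara were named after their values were seen. Wee1, a kinase that holds back mitosis and a classical E-box output, had a positive change of 0.22 (8.64 ± 0.13 and 8.86 ± 0.18, limma adjusted p = 0.291). HCC array 5 was the tumour nearest to control in Lpin1 and in these 4 genes, as in Alas1 (10.86, against 8.67 to 10.32 on the other tumours) and Nr1i3 (10.49, against 5.82 to 9.84).

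**Figure D5:**
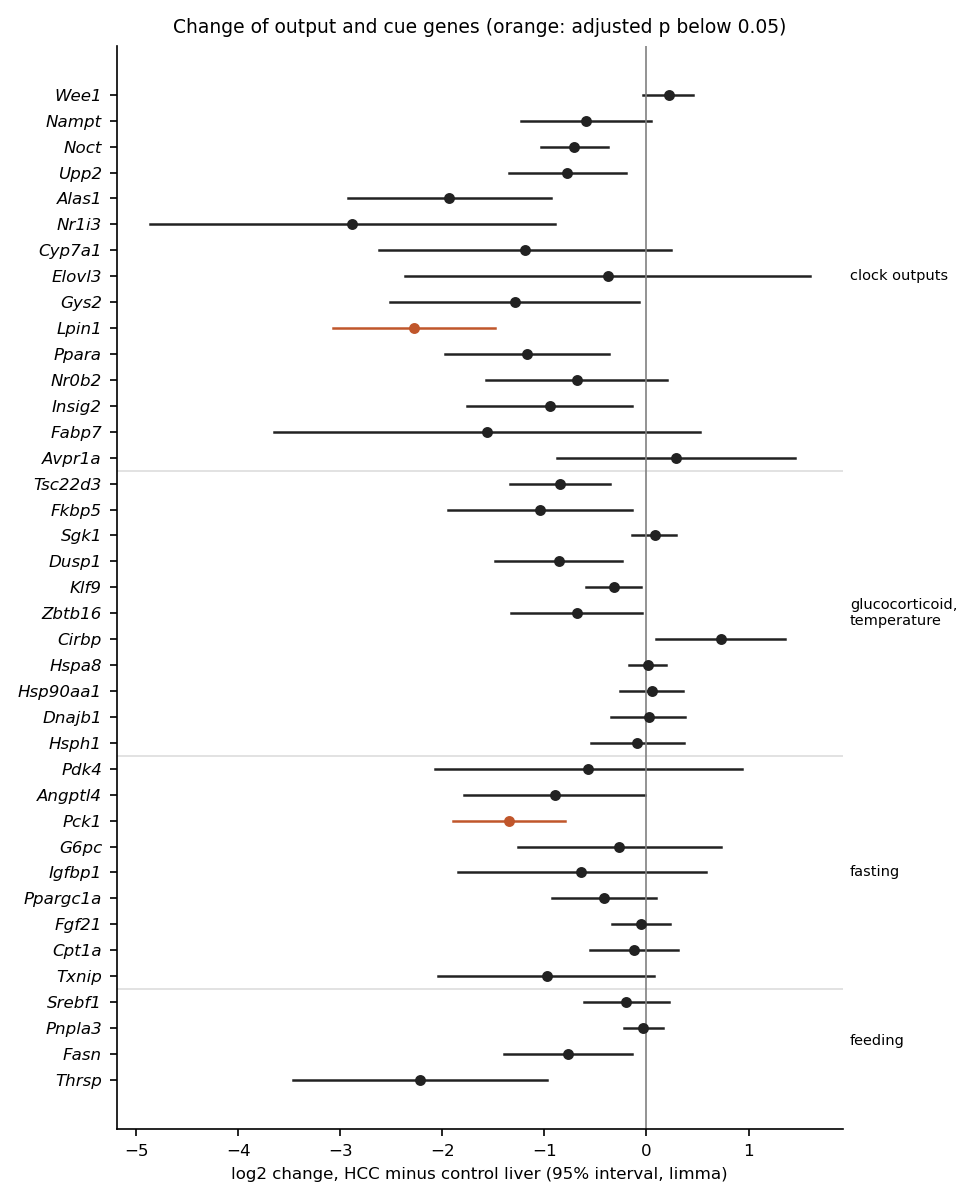
Log2 change, HCC minus control liver (horizontal axis), with 95% intervals from limma for liver clock outputs and for genes of glucocorticoid and temperature cues, fasting and feeding. Lpin1 and Pck1 (orange) pass the adjusted threshold, and most outputs lie left of 0.

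Systemic signals set the phase of the liver clock, and genes that report them were read in the same fit. Of 11 glucocorticoid and temperature genes none passed in limma, 6 had an unadjusted p below 0.05 (20.4% of all genes) and the median was -0.09. The glucocorticoid-induced genes Fkbp5 (8.71 ± 0.47 and 7.66 ± 0.80, change -1.04, limma adjusted p = 0.196), Dusp1 (8.99 ± 0.51 and 8.12 ± 0.43, change -0.86, limma adjusted p = 0.141) and Tsc22d3 (8.58 ± 0.11 and 7.73 ± 0.47, change -0.85, limma adjusted p = 0.0917) had the largest changes. Tsc22d3 passed without HCC array 5 (change -1.03, limma adjusted p = 0.00660).

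All 9 fasting genes had a negative change, against 57.5% of all genes, some of them near 0, such as Fgf21 at -0.05. Pck1, the key enzyme of gluconeogenesis, fell and was the only one past the threshold, where 0.16% of all genes were lower. It measured 12.01, 12.13, 12.18 and 11.95 in control liver and 10.66, 10.61, 10.22, 10.47 and 11.62 in HCC, with no overlap and with HCC array 5 nearest to control (change -1.35, 2.55-fold, SE 0.25, limma adjusted p = 0.0460). That call was lost without any 1 array other than HCC array 5, with adjusted p-values in limma from 0.0756 to 0.142, and when Xist was added to the model (0.0597). Angptl4 also lay below control on every HCC array (change -0.90, limma adjusted p = 0.243), as 3.86% of all genes did. Of 4 feeding genes none passed and all were negative, where 57.5% of all genes were, with Pnpla3 near 0 at -0.03. Thrsp, a lipogenic gene, was at 12.58 ± 0.26 and 10.36 ± 1.22 (change -2.22, limma adjusted p = 0.0871) and Fasn at 8.69 ± 0.30 and 7.93 ± 0.56 (change -0.77, limma adjusted p = 0.178). Srebf1, the regulator of both, measured 8.32 ± 0.10 and 8.12 ± 0.39 (change -0.20, limma adjusted p = 0.568). Without HCC array 5 Thrsp was at -2.76 and passed (limma adjusted p = 3.45e-04), as it did with array weights (0.0462).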

How the data were processed

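Total RNA of 9 liver samples, 1 Affymetrix Mouse Gene 1.0 ST array each, was analysed from the authors' deposited intensity values. These are RMA summaries per the submitters' processing notes, made with GenePattern and R per the labels of the series, on a linear scale (3.91 to 21468, array medians 91.5 to 101.3). They were taken to log2 with no pseudocount or floor. Of 35512 probe sets, 21789 had 1 gene symbol, 1621 several and 12102 none in the platform annotation. Probe sets with 1 symbol were kept, the brightest per gene, which left 19938 genes. Symbols were checked by Entrez identifier against RefSeq GRCm38.p6 (21698 matched). Values repeated between arrays within 13732 probe sets. Detection calls and scanner files were not used here, and the number of arrays limits the precision.

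The groups were set against each other in limma 3.58.1 under R 4.3.3 (lmFit and eBayes, group as the only term, two-sided), and the fit was tested on simulated data. The labels do not tie each array to an animal, so p-values measure the spread between these samples. The members, lists and arms were chosen with earlier results of these data known. All 10 members were named, and of each other list the genes past the threshold or else the 3 with the largest change; genes outside this rule were picked with their values in view. The genes most like and most opposite to Dbp were the 5 each with the highest and lowest r among genes above the median intensity, with clone-like symbols passed over. Alternatives were quantile normalisation, array medians, a filter on dim genes, trend and robust eBayes, array weights, probe set averages, every probe set alone, the Xist level, the replicate number as a block, and leaving out each array. All 10 members passed the filter on dim genes. Some genes of the lists are not reported here. Python 3.11.15, pandas 2.3.3, numpy 2.4.6 and matplotlib 3.10.9 were used.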

Additional observations from a re-analysis of the deposited data

Results flagged for a closer look

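For 57 genes named in the text, some of them picked with their values in view, 114 groups of 4 or 5 arrays were searched for an array far from the others of its group. There were 12 such arrays. Chance would give about 1 in 20 groups, but with genes picked in this way the 12 cannot be set against that rate. Per1 was 8.16 on control array 3, while the other 3 control arrays shared the identical value of 7.80. Rorb, a dim probe set, was 5.57 on control array 1 and 5.48 to 5.49 on the others. Nr1i3 was 11.77 on control array 1 and 10.79 to 10.82 on the others. On control array 4 Elovl3 was 8.27 against 6.08 to 6.28, and Xist 4.83 against 10.68 to 11.76.

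On HCC array 5 Thrsp was 12.53 and 9.65 to 10.05 on the other tumours, where the controls measured 12.35 to 12.94. Elovl3 was 9.47 on that array against 5.22 to 5.72, and Alas2 10.37 against 7.18 to 7.47. On HCC array 2 Bhlhe41 was 7.51 against 6.74 to 6.77, and the macrophage marker Adgre1 9.56 against 7.28 to 7.63. On HCC array 3, the array with the highest Nr1d1, Zbtb24 was 7.16 against at most 7.01 and Tango6 7.17 against 7.12 to 7.13.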

How the results depend on the processing

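All 180 values of the 10 clock genes under the alternatives kept their sign and stayed short of the threshold. With 1 probe set per member, probe set averages and every probe set alone repeat the change of the main fit. The filter on dim genes and trend and robust eBayes also leave the change as it is. The sign could not differ under these settings. The median gap of the arms in HCC was 0.68 and ran from 0.38 to 0.94 when single arrays were left out. The counts over all genes, 171 higher and 32 lower in limma, depended on the processing. They were 285 and 93 with the filter on dim genes, 503 and 246 with array weights, and 259 and 220 with the replicate block, while quantile normalisation gave 49 lower. Number 5 has no control array, so the block also takes HCC array 5 out of the contrast, and the changes it gives for the named genes equal those without that array. Leaving out 1 array gave 10 to 631 higher and 0 to 556 lower. Without control array 1, 2, 3 or 4 the counts were 15, 13, 10 and 31 higher and 0, 0, 0 and 12 lower, where an unadjusted p below 0.05 held for 1530, 1615 and 1484 lower genes in the limma fits with 0. Without HCC array 1, 2, 3, 4 or 5 they were 115, 66, 49, 34 and 631 higher and 9, 10, 3, 1 and 556 lower. The cause was not tested. Same-numbered arrays of the groups had deviations that correlated at -0.004, 0.324, -0.029 and -0.083. Arrays of unlike number ran from -0.167 to 0.207, so the 0.324 of the arrays numbered 2 was the highest of all. Whether the numbers pair the samples cannot be told from these values. With the block, and so without HCC array 5 in the contrast, Tsc22d3 (-1.03, adjusted p = 0.0339 in limma) and Thrsp (-2.76, adjusted p = 0.0135 in limma) passed, as they did when that array alone was left out. Arntl2, at -0.00, turned to 0.03 with quantile normalisation, 0.06 with array weights, 0.04 with the Xist level, 0.01 with the block and -0.07 to 0.11 when single arrays were left out. Rorb, at 0.00, turned to -0.02 with array medians and -0.01 with the Xist level, and ran from -0.03 to 0.03 when single arrays were left out. Ier2 lost its call under 14 of 17 alternatives.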

Other observations

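Immediate early genes, which respond within minutes to handling and growth signals, were read beside the clock. Of 8 measured, Ier2 rose, from 7.06 ± 0.18 to 7.53 ± 0.06 (change 0.47, 1.38-fold, limma adjusted p = 0.0497), all HCC arrays above all controls, where 5.63% of all genes were. Its call was at the edge of the threshold, and over the alternatives its adjusted p in limma ran from 0.0309 to 0.146. Fos measured 6.20 to 6.40 in control liver and 6.06 to 6.27 in HCC.

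Elovl3, a fatty acid elongase driven by the clock in liver, was 8.27 on control array 4 and 9.47 on HCC array 5, against 5.22 to 6.28 on the other 7 arrays. Both were arrays with low Xist. HCC arrays 3 and 4 also had low Xist and measured 5.72 and 5.62 for Elovl3. The part of sex in these values was not tested. Igfbp1, a fasting gene, was 10.68 and 10.54 on control arrays 2 and 3 and 8.87 and 8.22 on control arrays 1 and 4. This is the same split of the controls as in Arntl, and its share over all genes was not counted. Avpr1a, a vasopressin receptor, was 11.05 on HCC array 3, the array with the highest Nr1d1, and 8.01 to 9.67 on the other 8.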
